A study of Mus musculus with 6 samples.

Results

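The transcripts described here encode the enzymes that remove superoxide and hydrogen peroxide in liver, namely the peroxiredoxins Prdx1 to Prdx6, the superoxide dismutases Sod1 and Sod2, catalase (Cat) and glutathione peroxidase Gpx1. They were chosen by symbol, as every probe set of the array whose platform annotation gives 1 of these symbols alone. This gave 19 of 45101 probe sets, which cover 7 of the 10 genes, among 18194 genes that the annotation names singly: Prdx2, Prdx3, Prdx4, Sod1, Sod2, Cat and Gpx1. Prdx1 had 5 probe sets, each annotated also to the pseudogene Gm21399, so their signal cannot be assigned to Prdx1 alone and they were not counted. Prdx5 and Prdx6 are not analysed here, since no probe set carries their symbol in the annotation used.

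The study compared livers of C57BL/6 mice fed a ketogenic diet (F3666, Bio-Serv), in which fat replaces nearly all carbohydrate, with livers of mice fed chow (Labdiet 5008). Mice were 8 weeks old when feeding began, ate for 6 weeks and were killed in the morning with food freely available. Total RNA was hybridised to 3 Affymetrix arrays per diet. The design text gives 2 to 3 animals per group and does not say whether an array held 1 mouse or a pool, so the p-values describe array-to-array spread, which may be technical.

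Superoxide dismutases turn superoxide, a by-product of respiration and of several oxidases, into hydrogen peroxide. Catalase in peroxisomes, selenium-dependent Gpx1 with glutathione, and the peroxiredoxins with thioredoxin then reduce the peroxide to water. Liver is rich in these enzymes, and its mitochondria, peroxisomes and cytochromes P450 produce much peroxide. Several of the supporting genes are known targets of the transcription factor NRF2.

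None of the 7 enzymes passed the test at the level of genes, with an adjusted p under 0.05 in limma as the threshold. Over all genes 7.39% passed (877 of 11866), 6.52% higher and 0.868% lower on the ketogenic diet. At an unadjusted p under 0.05, 0 of the 7 passed, against 22.9% of all genes. The estimated log2 changes, ketogenic minus chow, ran from -0.31 for Sod1 to 0.35 for Prdx2, and their median was 0.035, against 0.235 over all genes. The smallest change called for any gene was 0.882 on this scale, so no gene with a difference as small as those estimated here was called, and the intervals below give what the arrays allow. Of the 19 probe sets, 17 passed the filter on low signals. None of the 17 passed the threshold in limma, against 4.64% of the 22515 probe sets that passed the filter. An unadjusted p under 0.05 was found for 2 of the 17, namely 1 each of Prdx2 and Prdx4. That level was passed by 22.9% of all genes, and the share of all probe sets that passed it was not computed.

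Array level and RNA quality bear on every value. The trimmed mean signal was 54.4, 60.1 and 45.1 on ketogenic arrays 1, 2 and 3, against 52.7, 45.8 and 39.5 on chow arrays 1, 2 and 3 (two-sided exact permutation p = 0.3). The actin 3' to 5' signal ratio, which rises as RNA degrades, was 1.49 to 1.63 on ketogenic and 2.00 to 2.20 on chow arrays (exact p = 0.1, the smallest that 3 against 3 arrays can give). The same ratio of Gapdh did not separate the diets, with 0.793 ± 0.019 on ketogenic and 0.839 ± 0.115 on chow arrays (SD, n = 3, exact p = 0.9). The hybridization controls are RNAs spiked in at a set amount. Their geometric mean signal per array was 499.5 ± 18.4 on ketogenic and 641.7 ± 8.53 on chow arrays (SD, n = 3, exact permutation p = 0.1). Relative to the deposited values, the median change of all genes moved by -0.112 with a common array median, by -0.209 with a common trimmed mean, by -0.243 with quantile normalization and by 0.362 when scaled to those controls. The share of called genes that were higher was 88.3% as deposited and 76.8%, 65.5%, 63.6% and 97.6% under those 4 scalings. Of 10 hepatocyte markers 7 were kept, 6 of them bright and Ass1 dim, and they summed to 39300 to 43980 on ketogenic and 48065 to 48231 on chow arrays, and 0 of the 7 passed the test. In whole liver, fewer cells of a type and less RNA per cell cannot be told apart.

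**Figure D1:**
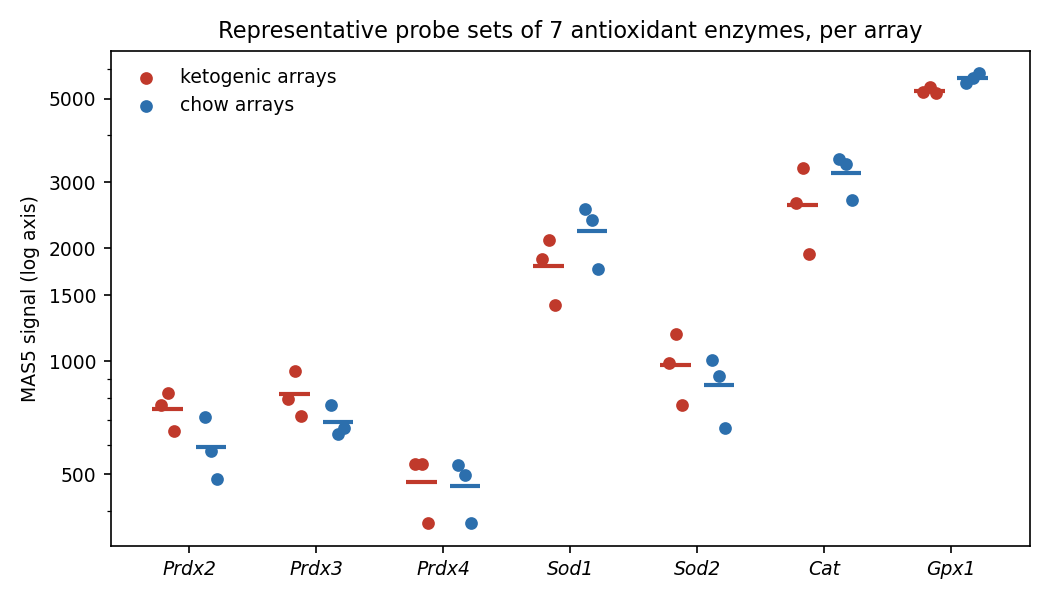
MAS5 signal (log axis) of the brightest probe set of each of the 7 enzymes on the 3 ketogenic (red) and 3 chow (blue) arrays, with horizontal bars for the means. The diets overlap for each gene except Gpx1, whose ketogenic arrays reach 5370.4 at most, against at least 5525.7 on chow. Heights of different genes are not comparable, because probe sets differ in how well they bind.

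Among the peroxiredoxins, Prdx2, a cytosolic thioredoxin-dependent peroxidase that is also abundant in red blood cells, had signals of 765.6, 825.9 and 652.6 on ketogenic arrays, against 712.8, 576.8 and 486.9 on chow arrays (probe set 1418506_a_at). The ketogenic arrays were higher on average, but chow array 1 lay above ketogenic array 3. On the log2 scale the difference was 0.35 ± 0.25 (SE), adjusted p = 0.439 in limma, and the ratio had a 95% interval of 0.863 to 1.88. A dimmer probe set of Prdx2, 1430979_a_at, read 111.8, 120.9 and 82.7 on ketogenic arrays, against 64.3, 50.4 and 49.5 on chow arrays. Here every ketogenic array was above every chow array, and the difference was 0.93 ± 0.27 (log2, SE; adjusted p = 0.0908). This probe set passed the threshold under 6 of 16 alternatives (adjusted p from 0.0126 to 0.28), and the brighter one under 0 of 16. At the level of genes, Prdx2 passed under 1 of 17 alternatives, the scaling to hybridization controls. Its log2 change there was 0.71 (adjusted p = 0.0434). Scaled in this way, genes in general centred on 0.597 (median). Of 11865 genes, 3820 were then called higher and 93 lower, so this call alone does not set Prdx2 apart. Of 8 erythroid markers, Alas2 and Klf1 were kept. Their summed signal was 155.2 to 191.5 on ketogenic and 286.3 to 430.1 on chow arrays, the other way from Prdx2. The erythroid markers Hba-a1, Slc4a1 and Epb42 lay under the filter, and the part of red cells in the Prdx2 signal was not tested. The genes whose centred log2 signals over the 6 arrays lay nearest to those of Prdx2, by Euclidean distance, were Ubap1 (0.0409), Edem3 (0.0559) and Trim28 (0.0795).

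The 250 bases before the annotated start of Prdx2 are shown because it had the largest estimated change of the 7 enzymes. On the brightest probe sets it also had the only call under any scaling. That call came with the scaling that raised genes in general, as given above. The sequence is from RefSeq, build GRCm38.p6, chr8:84969372-84969621 on the plus strand. Capitals would mark the core of the antioxidant response element, TGACNNNGC, which NRF2 binds, or a GC box, GGGCGG, on either strand, and the Prdx2 window held no match to either.
Prdx2: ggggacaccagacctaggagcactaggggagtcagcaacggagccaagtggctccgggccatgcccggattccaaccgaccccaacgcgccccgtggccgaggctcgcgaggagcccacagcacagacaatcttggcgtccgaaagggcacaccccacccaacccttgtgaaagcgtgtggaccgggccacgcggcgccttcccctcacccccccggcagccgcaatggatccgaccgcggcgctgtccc

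Prdx3, the mitochondrial peroxiredoxin, had 1 probe set, 1416292_at, with signals of 794.2, 940.9 and 716.4 on ketogenic arrays, against 765.5, 641.6 and 662.9 on chow arrays. Chow array 1 lay between the ketogenic values, so the diets overlapped. The log2 change was 0.24 ± 0.23 (SE), adjusted p = 0.576, close to the median of all genes, with a 95% interval of 0.819 to 1.70 for the ratio. Like Prdx2 it had a positive estimate under all 4 other scalings, from 0.03 with a common trimmed mean to 0.60 with hybridization control scaling.

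Prdx4, which resides in the endoplasmic reticulum and passes oxidising equivalents from peroxide to protein disulfide isomerases, gave different answers on its 3 kept probe sets. The brightest, 1416167_at, read 533.5, 531.7 and 371.0 on ketogenic arrays, against 528.4, 498.6 and 371.4 on chow arrays, a difference of 0.04 ± 0.27 (log2, SE; adjusted p = 0.949). Its values nearly coincided between the diets, and the 95% interval of the ratio was 0.676 to 1.55. Probe set 1435731_x_at of Prdx4 read 104.3, 146.8 and 61.7 on ketogenic arrays, against 229.9, 189.6 and 211.1 on chow arrays. Each ketogenic array was below each chow array, by a log2 difference of -1.09 ± 0.34 (SE; adjusted p = 0.114). Such a probe set, ending in _x_at, can bind other transcripts too. It passed the threshold under 6 of 15 alternatives (adjusted p from 0.0127 to 0.308), among them a common array median, a common trimmed mean and quantile normalization. Probe set 1416166_a_at of Prdx4 read 65.3, 96.3 and 48.6 on ketogenic arrays, against 129.4, 141.4 and 82.0 on chow arrays, a log2 difference of -0.77 (adjusted p = 0.255). The fourth, 1431269_at, was not above the background of 10.8 on average in either diet.

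The disagreement does not depend on array scaling, because it can be read within each array. The log2 ratio of 1435731_x_at to 1416167_at was -2.27 ± 0.374 on ketogenic and -1.14 ± 0.295 on chow arrays (SD, n = 3), a difference of -1.13 and an exact permutation p of 0.1. For 1416166_a_at against 1416167_at the difference was -0.80 (exact permutation p = 0.1). These ratios were chosen after the values had been seen, and 10 such ratios over the members with several probe sets gave an adjusted p of 0.2 at best. The positions of the probes along the transcripts were not used here. The 3' to 5' ratio of actin separated the diets and that of Gapdh did not, as given above, and the part of RNA quality in these differences was not tested.

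**Figure D2:**
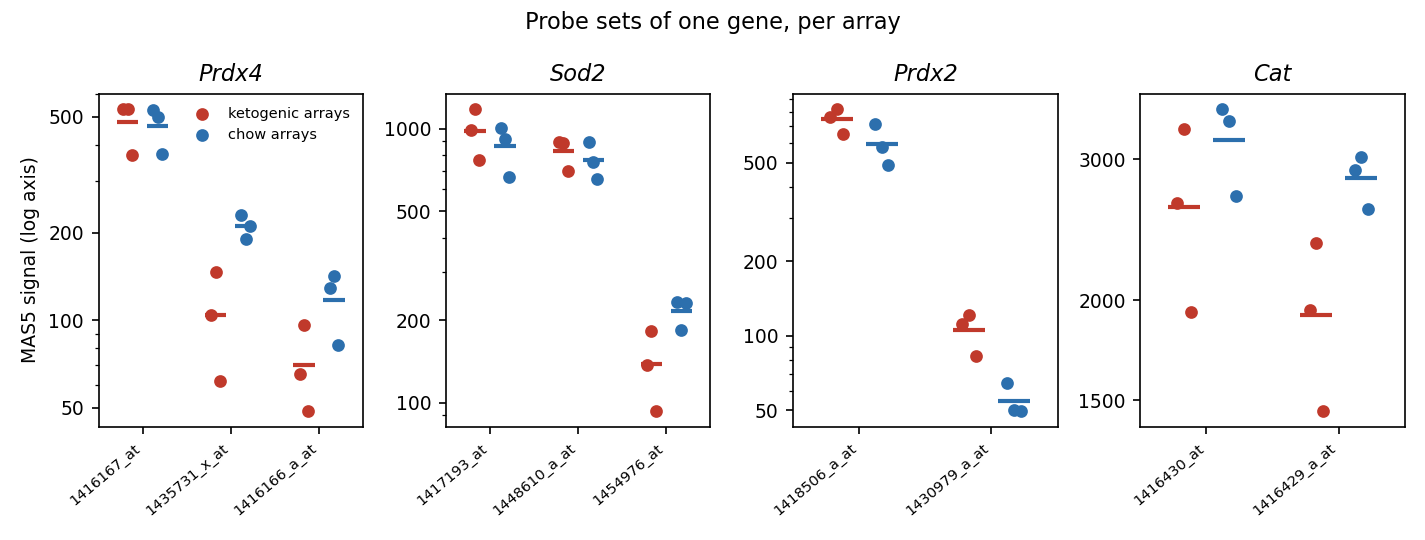
MAS5 signal (log axis) of the probe sets of Prdx4, Sod2, Prdx2 and Cat on 3 ketogenic (red) and 3 chow (blue) arrays, with bars for means. Within Prdx4 and within Sod2 the brightest probe set overlaps between the diets, while 1435731_x_at (61.7 to 146.8 ketogenic, 189.6 to 229.9 chow) and 1454976_at (92.8 to 183.0 ketogenic, 183.4 to 233.4 chow) are lower on each ketogenic array. The dimmer Sod2 probe set 1417194_at is not drawn.

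The probe sets annotated jointly to Prdx1, a cytosolic peroxiredoxin, and Gm21399 were all bright and none of the 5 passed the threshold. The ratio of mean signals, ketogenic over chow, was 0.911 to 1.28. In 1 of them, 1416000_a_at, the ketogenic arrays read 4465.3, 4751.4 and 4055.4, against 3588.8, 3205.5 and 3610.2 on chow arrays. The diets did not overlap there, and the log2 difference was 0.35 (adjusted p = 0.441). They overlapped in the other 4, which all end in _x_at and so can bind other transcripts too. These signals cannot be divided between the gene and its pseudogene.

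Sod1, the copper and zinc dismutase of the cytosol, had signals of 1868.9, 2107.6 and 1414.8 on ketogenic arrays, against 2547.9, 2382.6 and 1763.2 on chow arrays (1459976_s_at). The ketogenic arrays were lower on average, with chow array 3 inside their range. The log2 change was -0.31 ± 0.27 (SE), adjusted p = 0.516, and the 95% interval of the ratio was 0.531 to 1.22. The second bright probe set of Sod1, 1451124_at, read 1533.8, 1636.6 and 1121.1 on ketogenic arrays, against 1819.3, 1559.5 and 1594.8 on chow arrays (log2 change -0.23, adjusted p = 0.657). The dim probe sets 1440222_at and 1435304_at of Sod1 had log2 differences of 0.01 and -0.04. One more, 1447761_x_at, lay under the background in both diets.

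Sod2, the manganese dismutase of mitochondria, which is also induced by NF-kB in inflammation, read 989.8, 1182.2 and 766.4 on ketogenic arrays, against 1007.2, 917.1 and 664.7 on chow arrays (1417193_at). The diets overlapped, the log2 difference being 0.18 ± 0.27 (SE), adjusted p = 0.729, with a 95% interval of 0.739 to 1.74 for the ratio. The Sod2 probe set 1448610_a_at had a log2 change of 0.11 and the dim 1417194_at one of 0.39, neither past the threshold. The Sod2 probe set 1454976_at went the other way, with 137.5, 183.0 and 92.8 on ketogenic arrays, against 233.4, 183.4 and 231.6 on chow arrays. Its highest ketogenic value was just under its lowest chow value, and the log2 difference was -0.70 ± 0.31 (SE; adjusted p = 0.252). Within arrays, the log2 ratio of 1454976_at to 1417193_at differed by -0.88, ketogenic minus chow (exact permutation p = 0.1).

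Relative to each other on the same array, the brightest probe sets of the dismutases separated the diets. The log2 ratio of Sod2 to Sod1 was -0.92, -0.83 and -0.88 on ketogenic arrays, against -1.34, -1.38 and -1.41 on chow arrays. The arrays of a diet lay close together, and the means of the diets differed by 0.50, with an exact permutation p = 0.1, the smallest that 3 against 3 arrays can give, and 0.2 adjusted over the 2 pairs that could be formed. Leaving out any 1 array gave 0.47 to 0.52. Over 8 pairings of the 4 kept Sod2 with the 2 bright Sod1 probe sets, 6 had a higher ratio on each ketogenic array, by 0.34 to 0.70. The 2 pairings with 1454976_at had lower mean ratios on the ketogenic diet. Over 1459976_s_at the difference was -0.38 and the diets overlapped. Over 1451124_at it was -0.47, with each ketogenic array below each chow array (exact permutation p = 0.1). The mean ratio was thus higher on the ketogenic diet for 3 of the 4 Sod2 probe sets, and a ratio shows unequal change only, not which transcript differed. Catalase against Gpx1, the other pair, differed by -0.19 (exact permutation p = 0.6).

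**Figure D3:**
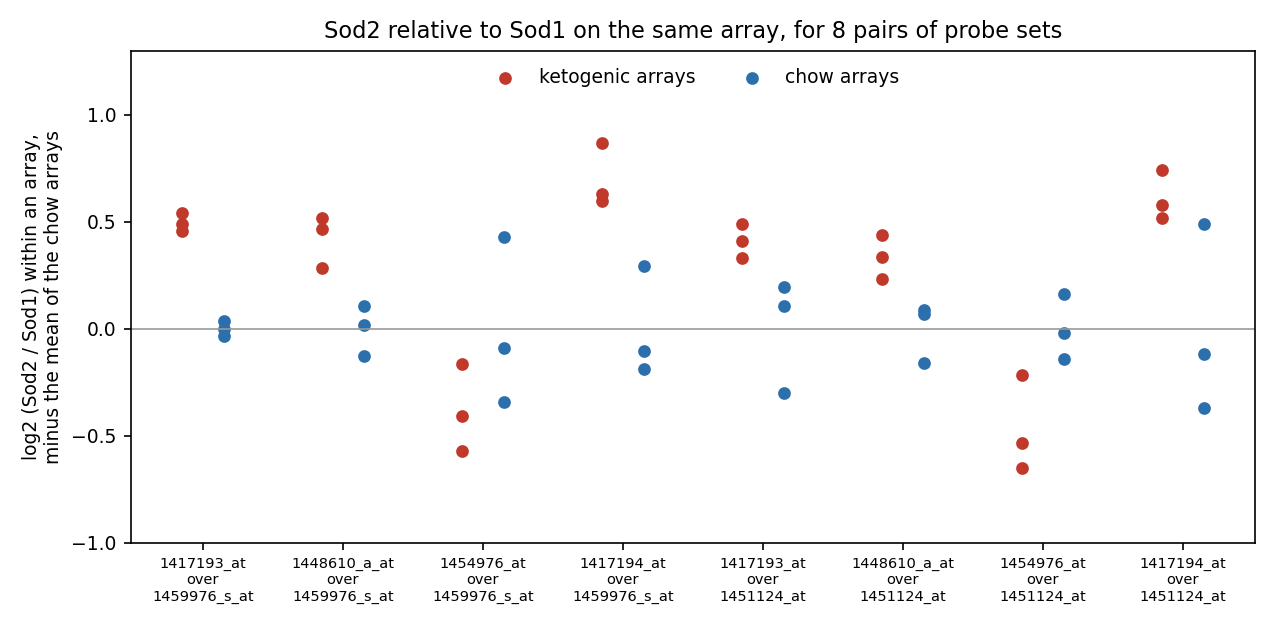
Log2 ratio of a Sod2 probe set to a Sod1 probe set within an array, minus the mean of the 3 chow arrays, for 8 pairs of probe sets (ketogenic red, chow blue, 1 point per array). In 6 of 8 pairs each ketogenic point lies above each chow point, and in both pairs with 1454976_at the ketogenic mean is lower. For 1454976_at over 1451124_at each ketogenic point lies below each chow point.

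The windows before the starts of these dismutase genes are shown because their ratio separated the diets. Both are from RefSeq, GRCm38.p6, on the plus strand, Sod1 at chr16:90220512-90220761 and Sod2 at chr17:13007589-13007838, with the antioxidant response element core and GC boxes in capitals.
Sod1: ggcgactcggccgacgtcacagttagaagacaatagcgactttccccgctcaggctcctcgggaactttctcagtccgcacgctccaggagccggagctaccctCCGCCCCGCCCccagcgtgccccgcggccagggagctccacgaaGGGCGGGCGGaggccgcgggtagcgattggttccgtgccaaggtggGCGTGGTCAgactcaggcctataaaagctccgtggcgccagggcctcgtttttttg
Sod2: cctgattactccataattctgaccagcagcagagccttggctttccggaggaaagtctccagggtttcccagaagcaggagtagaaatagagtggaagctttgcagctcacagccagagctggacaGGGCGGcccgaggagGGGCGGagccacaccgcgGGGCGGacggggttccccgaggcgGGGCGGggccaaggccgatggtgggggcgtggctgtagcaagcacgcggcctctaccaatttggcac

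Each of these windows held 4 GC boxes, some of those of Sod1 overlapping, and a CCAAT box. Sod1 also held TGACCACGC, a match to the antioxidant response element core on the minus strand. Windows were found for 9 of the 10 enzymes. The core matched in 2 of the 9, Sod1 and Prdx1 (TGACTCAGC), against 10.2% of all 32851 windows. GC boxes matched in 7 of 9, against 32.7% of all windows, and CCAAT in 4 of 9, against 33.8%. Matches and their absence describe these letters in these windows only.

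Catalase, the peroxisomal enzyme that splits hydrogen peroxide, read 2642.7, 3272.8 and 1930.8 on ketogenic arrays, against 3467.6, 3347.6 and 2696.9 on chow arrays (1416430_at). Ketogenic array 2 reached the chow range, and the log2 change was -0.30 ± 0.27 (SE), adjusted p = 0.54, with a 95% interval of 0.531 to 1.24 for the ratio. The second probe set of Cat, 1416429_a_at, read 1946.9, 2358.1 and 1452.7 on ketogenic arrays, against 2903.5, 3017.3 and 2599.8 on chow arrays. There the diets did not overlap, by a log2 difference of -0.59 ± 0.27 (SE; adjusted p = 0.265). It passed the threshold under 1 of 16 alternatives, a common trimmed mean (adjusted p = 0.0458).

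Gpx1, the glutathione peroxidase of cytosol and mitochondria, had a narrow spread, with 5215.5, 5370.4 and 5175.1 on ketogenic arrays, against 5525.7, 5691.5 and 5852.2 on chow arrays. Each ketogenic array was below each chow array, by a ratio of means of 0.923. Gpx1 was the only 1 of the 7 enzymes whose diets did not overlap on the brightest probe set, against 29.2% of all genes (24% with each ketogenic array above and 5.17% with each below). The log2 difference was -0.11 ± 0.22 (SE; adjusted p = 0.789), and the 95% interval of the ratio was 0.659 to 1.29. The direction reversed with quantile normalization (0.04) and with hybridization control scaling (0.25).

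**Figure D4:**
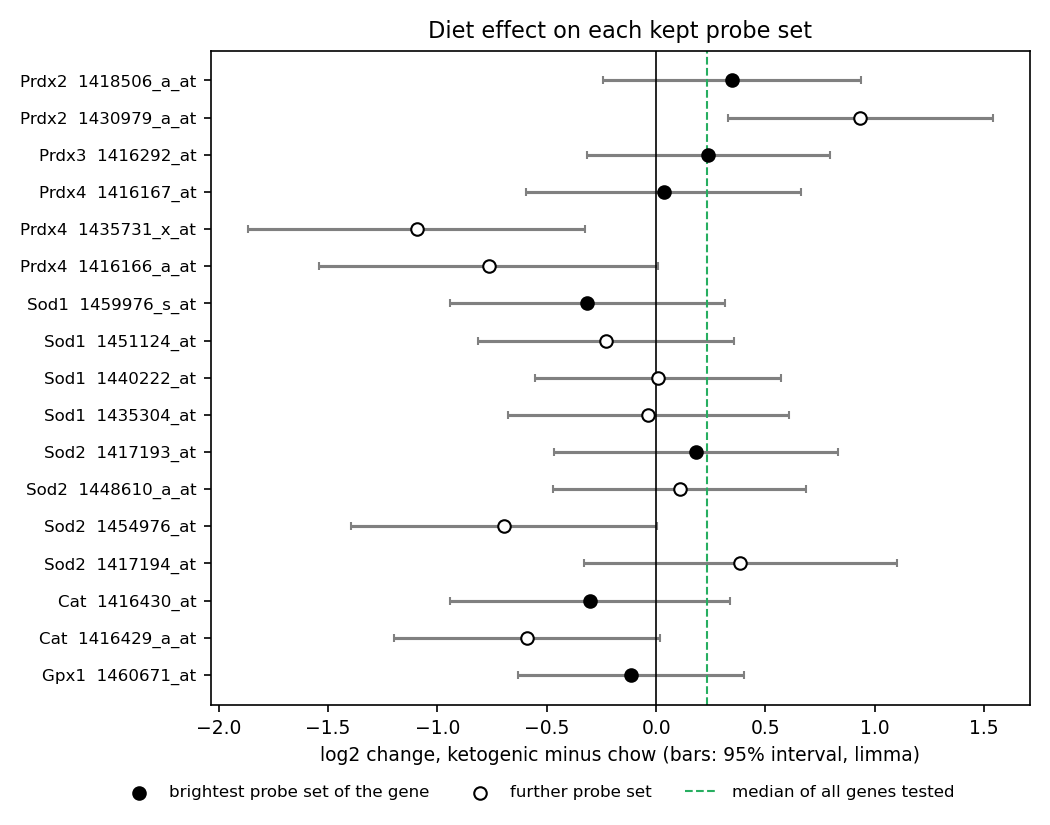
Log2 change, ketogenic minus chow, with its 95% interval in limma for the 17 kept probe sets, the brightest of each gene filled. The intervals cover 0 except for 1430979_a_at of Prdx2 (0.33 to 1.54) and 1435731_x_at of Prdx4 (-1.87 to -0.32), and the dashed line is the median of all genes, 0.235.

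Signs of the estimates followed the scaling for most enzymes. Of the 7, 4 had a positive and 3 a negative log2 change as deposited, and 5 lay below the median of all genes. Sod1 and Cat were negative under each scaling except that to the hybridization controls (0.05 and 0.06). Sod2 was negative only with a common trimmed mean (-0.03), and Prdx4 with each scaling other than the deposited one (0.04) and hybridization control scaling (0.40).

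Genes that serve these enzymes are set beside them. The shares of all genes that rose (6.52%) and fell (0.868%), and the all-gene median of 0.235, are the background for each list. Of 18 measured genes of the thioredoxin system, which reduces peroxiredoxins, 3 rose and 0 fell, with a median log2 change of 0.271, near that of all genes. Srxn1, sulfiredoxin, which restores peroxiredoxins whose active cysteine has been over-oxidised, had 323.6, 508.6 and 337.9 on ketogenic arrays, against 86.0, 125.5 and 72.8 on chow arrays. The diets were far apart, and Srxn1 rose by 2.05 ± 0.30 (log2, SE), adjusted p = 0.00585. Txnrd1, cytosolic thioredoxin reductase, rose by 1.16, and Msrb3, a methionine sulfoxide reductase, by 1.02. Neither passed without any 1 ketogenic array, without chow array 2 or 3, with no filter or with the mean of the probe sets, which leaves 1 called gene in the list. Msrb3 did not pass with quantile normalization either. Over these alternatives the adjusted p reached 0.157 for Txnrd1 and 0.124 for Msrb3. For Txn1, thioredoxin itself, named outside the rule, the log2 difference was 0.47 (adjusted p = 0.283).

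Of 9 measured genes of the glutathione system, 3 rose and 0 fell, with a median of 1.22. Mgst3, a microsomal glutathione transferase with peroxidase activity, rose by 2.01, and Gpx3, the secreted glutathione peroxidase, rose to 102.0 ± 11.5 on ketogenic arrays, against 32.3 ± 9.44 on chow arrays (SD, n = 3). The call of Gpx3 was lost with quantile normalization and with no filter (adjusted p up to 0.0548). Gss, glutathione synthetase, rose by 1.35. Without any 1 ketogenic array, without chow array 3 or with no filter, Gss no longer passed (adjusted p up to 0.141). Gpx4, which protects membranes from lipid peroxides, and Gsr, glutathione reductase, both named outside the rule, did not pass, at 0.64 (adjusted p = 0.135) and 0.56 (adjusted p = 0.248). Of 6 genes for extracellular dismutase and metal supply, 1 rose and 0 fell, with a median of 0.191. Sod3, the secreted dismutase, read 190.1, 217.8 and 239.3 on ketogenic arrays, against 78.0, 59.3 and 61.9 on chow arrays. Sod3 rose by 1.70 ± 0.24 (log2, SE), adjusted p = 0.00486, and kept its call under each of 17 alternatives. Slc30a10, a manganese exporter named after its values were seen, read 41.2, 50.5 and 44.3 on ketogenic arrays, against 120.7, 87.8 and 72.4 on chow arrays. The diets did not overlap, by a log2 difference of -1.02 (adjusted p = 0.051), and Slc30a10 passed as lower under 7 of 17 alternatives, among them a common array median, a common trimmed mean, quantile normalization and without chow array 3.

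Secreted forms can be set against intracellular ones, and sulfiredoxin against its substrate, within arrays, by ratios chosen after the values had been seen. The log2 ratio of Sod3 to Sod1 was 2.02 higher on ketogenic than on chow arrays, that of Gpx3 to Gpx1 1.81 higher, and that of Srxn1 to Prdx2 1.70 higher. Each had an exact permutation p of 0.1, which 3 against 3 arrays cannot go below, and none passed the threshold. Leaving out any 1 array gave 1.78 to 2.14, 1.64 to 2.03 and 1.51 to 1.93. Markers of other liver cells moved with these rises. Of 10 macrophage markers 9 rose, and their summed signal was 3809 to 5765 on ketogenic and 1135 to 1446 on chow arrays. Of 7 kept markers of matrix-producing stellate cells, out of 8, 7 rose, with sums of 2878 to 4499 on ketogenic and 1011 to 1266 on chow arrays. Above background on all arrays were 9 of the 10 macrophage and 6 of the 7 stellate markers, the mean signal of none was 0, and the part of these cells in the rises of Sod3, Gpx3 and Srxn1 was not tested.

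Sources and regulators of oxidants were described likewise. Of 5 genes of the phagocyte NADPH oxidase, which makes superoxide in macrophages and neutrophils, 3 rose and 0 fell, with a median of 1.79. The macrophage markers given above were higher with this list, as were 3 of 6 kept neutrophil markers. These were Csf3r, S100a8 and S100a9, each below background on chow. The other 3 had negative log2 changes, Elane of -0.87, Mpo of -0.63 and Ngp of -0.07. The 6 summed to 128.4 to 158.4 on ketogenic and 82.2 to 111.4 on chow arrays, and 2 of them were above background on all arrays. The part of macrophages and neutrophils in this list was not tested. Cyba, its membrane subunit p22phox, rose to 232.1 ± 17.6 on ketogenic arrays, against 29.9 ± 1.51 on chow arrays (SD, n = 3, adjusted p = 0.000363). Cybb, the catalytic subunit, and Rac2, a GTPase of blood cells, rose by 2.03 and 1.79. Of 9 NF-kB targets, 3 rose and 0 fell, with a median of 1.31. Nfkb2 rose at least 3.11-fold and Relb at least 2.32-fold over the background on chow, and Icam1, an adhesion molecule, rose by 2.08. Without ketogenic array 3, and under 4 other alternatives, Relb no longer passed (adjusted p up to 0.078), nor did Nfkb2 without chow array 1 or with no filter (up to 0.0744). Without ketogenic array 2 or with no filter, Rac2 no longer passed (up to 0.0978), and Cybb did not with no filter (0.0636). Of 13 genes of the NRF2 axis, 5 rose and 0 fell, with a median of 1.16. Abcc4, an efflux pump, rose by 2.55 and Hmox1, haem oxygenase, by 2.05, beside Srxn1 and Txnrd1, which are in the thioredoxin list too. Txnrd1 has the smallest change of the 5 called genes here and is named by the rule only in that list. The other was Osgin1 (1.82), named after its values were seen, which did not pass with no filter (adjusted p = 0.0693). Nfe2l2, which encodes NRF2 and is named outside the rule, had a log2 change of 0.83 (adjusted p = 0.0685).

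Of 11 genes of NADPH supply, which feeds both reductase systems, 3 rose and 1 fell, with a median log2 change of 0.271. Nnt, the mitochondrial transhydrogenase, rose by 1.53, Idh2, mitochondrial isocitrate dehydrogenase, by 1.06 and Tkt, transketolase, named after its values were seen, by 0.97 (adjusted p = 0.0473). Tkt no longer passed under 8 of 17 alternatives, among them without any 1 ketogenic array, without chow array 2 or 3 and with no filter (adjusted p up to 0.15). Idh2 no longer passed without any 1 ketogenic array, without chow array 2 or 3, with no filter or with the mean of its probe sets (adjusted p up to 0.214). Aldh1l1, a folate enzyme that makes NADPH, fell by 1.46. The calls of Nnt and Aldh1l1 were lost with no filter (adjusted p = 0.0518 and 0.0646).

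Further lists hold genes of the compartments in which the enzymes act. Of 7 peroxisomal and related oxidases, which produce the hydrogen peroxide that catalase removes, 0 passed the threshold in limma. The one with the highest signal, Uox, urate oxidase, had a log2 difference of -0.67 (adjusted p = 0.161) and passed as lower under 4 of 17 alternatives. Pipox passed as lower under 4 of 17 and Xdh as higher under 5 of 17, a common array median being among both. Of 14 genes of peroxisome biogenesis 0 passed, with Abcd3, a peroxisomal membrane transporter, at -0.25 (0.11 with hybridization control scaling). Of 15 genes of mitochondrial content 1 rose, Slc25a4, an ADP/ATP carrier, by 1.70, a call absent with no filter (adjusted p = 0.0687). Of 10 genes of oxidative folding in the endoplasmic reticulum 0 passed, with P4hb, protein disulfide isomerase, at 0.20 (-0.0067 with a common trimmed mean). Of 8 genes of selenoprotein synthesis, on which Gpx1 depends, 0 passed, with Selenop, the plasma selenium carrier, at -0.15 (0.04 with quantile normalization and 0.21 with hybridization control scaling). At an unadjusted p under 0.05, which 22.9% of all genes passed, 3 of the 7 oxidases (Xdh at 0.75, Pipox at -0.68 and Uox) and 1 of the 14 biogenesis genes (Pex11a, at 1.03) passed, and 0 of the folding and 0 of the selenoprotein genes. Pex11a passed as higher at the adjusted threshold under 4 of 17 alternatives. Xdh, Pipox and Pex11a are named after their values were seen. Median log2 changes were -0.096 for the oxidases, 0.180 for peroxisome biogenesis and 0.214 for mitochondrial content. They were 0.202 for oxidative folding and -0.160 for selenoprotein synthesis.

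**Figure D5:**
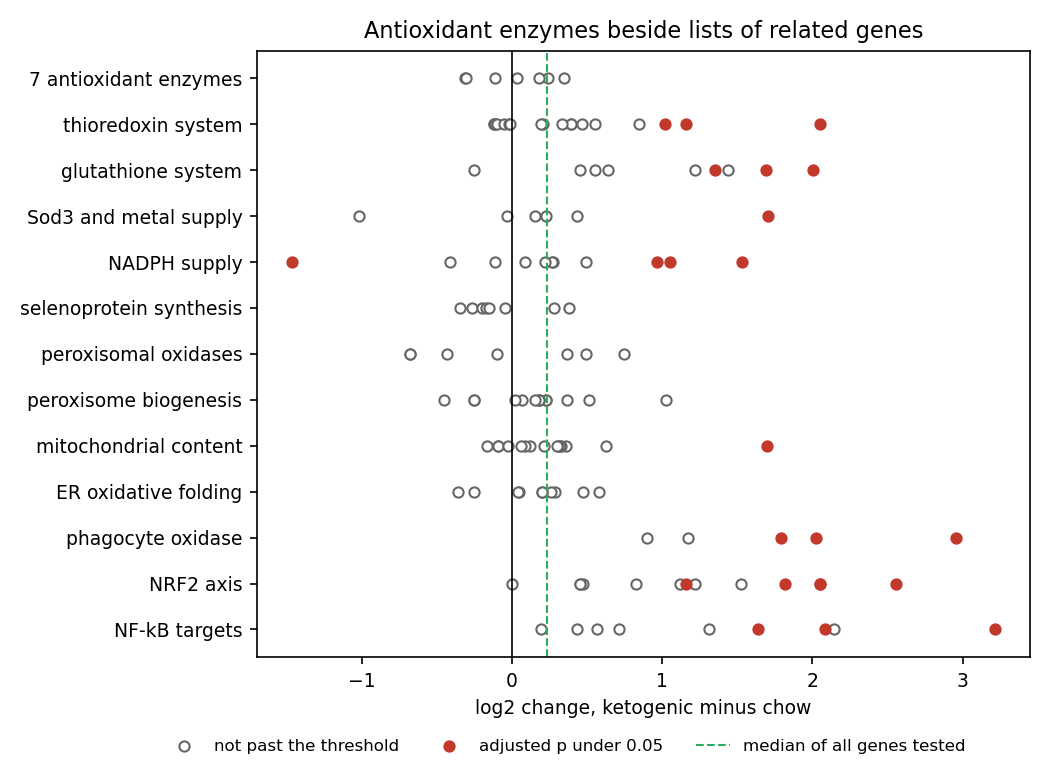
Log2 change, ketogenic minus chow, of each gene (1 point) in the 7 antioxidant enzymes and in 12 related lists, filled where the adjusted p was under 0.05. The 7 enzymes lie between -0.31 and 0.35, while the called genes of the related lists lie at 0.97 or more, save Aldh1l1 at -1.46. A gene can be in more than 1 list.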

How the data were processed

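Liver RNA was measured on 6 Affymetrix arrays, 3 per diet. The intensity values are linear signals that the authors deposited; GCOS and MAS5 are named per the submitters' processing notes, with version and target scaling not given in the sources used here. All 6 columns of the table were used and there were 0 others. Of the probe sets, 34958 carry 1 symbol, 932 several and 9211 none, and 34754 matched RefSeq (GRCm38.p6) by gene ID with 0 symbols changed.

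Signals were set to at least 1.1, the 10th percentile of the table, and put on the log2 scale. Probe sets with a mean log2 signal of 3.35 or more, the median, were kept, and the brightest stood for its gene. Background, 10.8, is the 95th percentile of the signals of 27 bacterial control probe sets on each array, averaged on the log2 scale. If a diet averaged less than this on the log2 scale, the fold is a lower bound, with dimmer arrays set to the background. Diets were compared with limma 3.58.1 in R 4.3.3 (4 residual and 5.07 prior degrees of freedom, Benjamini-Hochberg over all genes or all probe sets, threshold 0.05), and single values with two-sided exact permutation tests. The script was tested on simulated data.

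The members and lists were chosen with earlier results of these data known. Of each list the text names up to 3 called genes by size of change, or the member with the highest signal where none was called, and the 3 genes nearest to the member with the smallest adjusted p. Txn1, Gpx4, Gsr, Nfe2l2, Slc30a10, Tkt, Osgin1, Xdh, Pipox and Pex11a are named outside this rule, as is Txnrd1 in the NRF2 list. Ratios of probe sets within a gene and of partner genes were added after seeing the data. Pairs of members with Prdx1, Prdx5 or Prdx6 could not be formed, which left 2. Summed signals of endothelial markers (0 of 8 genes passed) were 1169 to 1514 on ketogenic and 628.8 to 1015 on chow arrays, of cholangiocyte markers (0 of 3) 74.0 to 87.5 and 44.3 to 69.4, of adipocyte markers (1 of 2 rose) 951.4 to 1293 and 103.1 to 257.9, and of acinar markers (0 of 4) 151.1 to 219.4 and 230.2 to 411.0. The adipocyte sum was mostly Cd36, with 941.9 to 1261.4 on ketogenic and 89.4 to 223 on chow arrays. The other kept adipocyte marker, Retn, had a log2 change of -0.69, and Adipoq and Lep lay under the filter. Alternatives covered scaling, floor, log offset, filter, prior, choice of probe set and leaving out each array.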

Additional observations from a re-analysis of the deposited data

How the results depend on the processing

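Over 17 alternatives the 7 enzymes gave 119 estimates. The one call was Prdx2, the 1 enzyme higher with hybridization control scaling, and 13 estimates reversed. Prdx4 (0.04) was at -0.077 after scaling to the array median, -0.17 to the trimmed mean, -0.15 by quantiles and -0.61 averaged over its probe sets, and from -0.12 to 0.21 when 1 array was left out. Sod2 was at -0.027 with a trimmed mean and -0.0047 averaged over probe sets. Gpx1 was at 0.040 and Selenop at 0.035 with quantile normalization, and P4hb at -0.0067 with a trimmed mean. With hybridization control scaling Sod1 was at 0.048, Cat 0.060, Gpx1 0.25, Abcd3 0.11 and Selenop 0.21. The ratio of Cat to Gpx1 (-0.19) ran from -0.35 to 0.0042 when 1 array was left out, the last without ketogenic array 3. Over all genes, 774 were higher and 103 lower. Lower genes numbered 277 with a common median, 360 with a trimmed mean and 327 with quantile normalization. Higher genes numbered 3820 with hybridization control scaling. With an offset of 16, 1341 were higher and 269 lower; with no filter 216 and 40; with a trended robust prior 1205 and 233; with a filter at the 75th percentile 212 were lower. Leaving out 1 array gave 435 to 836 higher and 60 to 144 lower. Over the 17 alternatives, genes called higher numbered 1 to 6 in the thioredoxin list, 1 to 8 in glutathione, 1 to 5 in phagocyte oxidase, 4 to 12 in NRF2, 1 to 6 in NF-kB, 0 to 4 in NADPH supply, 0 to 4 in mitochondrial content, 0 to 2 in selenoprotein synthesis, 0 to 3 in peroxisome biogenesis, 1 to 2 in the Sod3 list and 0 to 2 in oxidases, each highest count being reached with hybridization control scaling. Genes called lower numbered 0 to 1 in the Sod3 list, 0 to 1 in NADPH supply and 0 to 2 in oxidases. The cause was not tested. No paired analysis was possible because replicate numbers follow accession order only. Array number limits precision, and signals near background are the least certain.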
